A study of Mus musculus with 18 samples.

Results

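The respiratory chain of the inner mitochondrial membrane passes electrons from NADH (complex I) and succinate (complex II) through complex III to oxygen at complex IV, and complex V, the ATP synthase, uses the resulting proton gradient to make ATP. Most of its subunits are coded in the nucleus and a few core subunits in mitochondrial DNA. Hepatocytes are rich in mitochondria and make much of their ATP this way. The genes described here are the nuclear-coded subunits of complexes I to V. They were taken from the tumor table as protein-coding genes whose symbols start as respiratory chain subunits do: Nduf with a, b, c, s or v and a number, Sdha to Sdhd, Uqcr, Cox with a number from 4 to 8 and a letter from a to c, and Atp5. This gave 82 of 43346 genes: 37 of complex I, 4 of complex II, 8 of complex III, 16 of complex IV and 17 of complex V.

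The names bring in genes that are not plain subunits. Ndufa4 is now assigned to complex IV, Ndufa4l2 is its hypoxia-inducible relative, Cox7a2l takes part in joining complexes into supercomplexes, and Atp5s and Atp5sl are named after the synthase without being counted among its subunits. The names also miss some true subunits, such as Ndufab1, Cyc1 and Cox4i1, which are given apart. The 13 mitochondrially coded subunit genes were listed at 0 in all 12 tumors and all 3 cell samples, so nothing can be said of them.

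Gene expression was measured by RNA sequencing of mRNA libraries from mouse liver tumor nodules and from tumor cell lines. Tumors carried activated AKT (myr-AKT) with a form of YAP, the transcriptional coactivator of the Hippo pathway: YAP-SY carries S127A/Y357F, and YAP-S carries S127A alone. S127A keeps YAP active in the nucleus and was present in every tumor, as was myr-AKT, so setting YAP-SY against YAP-S asks what the added loss of the phosphorylated tyrosine changes. Tumors were labelled as cholangiocarcinoma (CCA), a bile duct cancer, or as mixed. The groups were YAP-SY CCA (tumors 1, 6 and 8), YAP-S CCA (3, 4 and 5), YAP-SY mixed (3, 5 and 9) and YAP-S mixed (2, 7 and 9), with 3 tumors each. SB1, with 3 samples, is a cell line whose genotype label is that of YAP-S CCA; a further line, SY1, was not analysed here. The labels give neither the age of the animals nor how the genes were delivered, and no normal liver was used here. They do not say whether nodules came from separate animals, so the p-values measure the spread between these samples. Tumor libraries held 30656499 to 130035221 counts and SB1 libraries 25341968 to 30541185.

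The labels of the CCA tumors were checked against cell type markers. Counts are of genes called by the edgeR test described below, at an adjusted p under 0.05. In YAP-SY CCA, 10 of 12 hepatocyte markers were higher than in YAP-S CCA, while 8 of 11 bile duct markers were lower. Of all genes tested, 18.3% were higher and 20.8% lower. Summed hepatocyte markers ran from 151783 to 170594 CPM (counts relative to the total of the library) in YAP-SY CCA and from 52982 to 67447 CPM in YAP-S CCA, while summed bile duct markers ran from 2786 to 4229 CPM and from 7658 to 10983 CPM in the same order. Most of each bile duct sum was Spp1, osteopontin. Lower in YAP-SY CCA were also 8 of 9 fibroblast, 4 of 7 pericyte and 5 of 7 leukocyte markers. In bulk tumor RNA, fewer cells of a type and less RNA per cell cannot be told apart, and the part of these markers in the results below was not tested.

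Nuclear-coded subunit genes are known to share promoter motifs of a few factors, chiefly NRF1, GABP (also called NRF2), YY1 and the ERR receptors. Promoters of 66 of the 82 genes were found in RefSeq (GRCm38.p6, 250 bases before to 50 bases after a gene's start) and searched on both strands. The NRF1 motif, GCGCA and GCGC with any base between them, was in 17 of them (25.8%) and in 5.19% of the 27025 genes with a promoter. The GABP motif, CCGGAAG, was in 16 (24.2%) and in 9.93% of all. The YY1 motif, AAGATGGCG, was in 7 (10.6%, against 1.64% of all), and the ERR motif, TCAAGGTCA, in 2 (3.03%, against 0.466%). The 120 bases before the start are printed here for 5 genes on which the results turn, 5′ to 3′ along the gene's strand (minus for all 5), with NRF1 and GABP matches in capitals (CTTCCGG is the GABP motif read from the other strand). They cover Sdha at chr13:74350241-74350360, Sdhd at chr9:50603850-50603969, Uqcrh at chr4:116075071-116075190, and a pair of forms of 1 complex IV subunit, Cox6b1 at chr7:30626115-30626234 and Cox6b2 at chr7:4753095-4753214.
Sdha: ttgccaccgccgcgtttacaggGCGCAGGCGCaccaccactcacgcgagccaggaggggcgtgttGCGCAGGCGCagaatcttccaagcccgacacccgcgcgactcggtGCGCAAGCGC
Sdhd: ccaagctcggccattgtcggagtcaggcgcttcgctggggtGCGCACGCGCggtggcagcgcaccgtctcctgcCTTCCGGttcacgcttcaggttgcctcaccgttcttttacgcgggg
Uqcrh: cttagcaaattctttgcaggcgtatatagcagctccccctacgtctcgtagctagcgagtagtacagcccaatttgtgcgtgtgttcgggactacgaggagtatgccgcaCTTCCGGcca
Cox6b1: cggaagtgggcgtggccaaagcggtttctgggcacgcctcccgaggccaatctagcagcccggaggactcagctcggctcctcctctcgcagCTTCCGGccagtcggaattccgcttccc
Cox6b2: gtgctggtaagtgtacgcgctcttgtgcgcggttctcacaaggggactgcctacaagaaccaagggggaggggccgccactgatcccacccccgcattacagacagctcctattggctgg
The Sdha stretch holds 3 NRF1 matches, that of Sdhd 1 of each, those of Uqcrh and Cox6b1 1 GABP match, and that of Cox6b2 none, which says only that these letters are not in this window. A match is a description of the sequence, not a binding site. Starts here are those of RefSeq. For Sdha the gene as listed with the counts (coordinates below) reaches into the printed stretch, so the NRF1 match at its end lies inside that gene. Promoters with an NRF1 or a GABP match made up 16 of the 36 genes that were higher in YAP-SY CCA than in YAP-S CCA (44.4%) and 13 of the 27 tested genes that did not pass (48.1%).

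In CCA tumors, most respiratory chain genes held more RNA in YAP-SY than in YAP-S, in all 5 complexes. Of the 78 genes with enough counts for a test, 46 were higher and 1 was lower by the quasi-likelihood test of edgeR, at a Benjamini-Hochberg adjusted p under 0.05 over all 18318 genes tested. Among all genes tested, 18.3% were higher and 20.8% lower. The median log2 fold change was 0.57 over the 78 genes and -0.00 over all genes. Values of the 3 tumors in each group did not overlap for 54 genes that were higher in YAP-SY and 1 that was lower, against 24.3% and 28.3% of all genes. The genes without a test were Cox6a2 and Cox8b, with few counts, and Cox7b2 and Cox8c, at 0 in all 15 samples.

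These folds are relative to the bulk of the genes. CPM values were scaled by TMM, which sets the typical gene to no change; scaled by library size alone, the median of all genes was -0.56 and that of the 78 genes 0.00. Relative to all genes, the 78 were thus 0.57 higher by either scaling. By library size alone 4 of them were called higher (Ndufa4, Ndufs1, Sdha and Uqcrc2, by 0.37 to 0.47) and 5 lower (Cox6b2, Ndufa4l2, Cox7a1, Atp5g2 and Ndufc2, by -2.84 to -0.62), and of all genes 760 were higher and 8064 lower. The 82 genes took 0.878%, 0.918% and 0.958% of all counts in YAP-SY CCA tumors 1, 6 and 8, against 0.879%, 0.826% and 0.864% in YAP-S CCA tumors 3, 4 and 5. These shares overlapped at their edge.

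Summed over the 82 genes, TMM-scaled CPM were 10586, 11848 and 11508 in YAP-SY CCA and 7497, 7221 and 6675 in YAP-S CCA. The mixed groups lay between them, at 8972 ± 1218 CPM in YAP-SY mixed and 8873 ± 670 CPM in YAP-S mixed (SD, n = 3 each). By library size alone the sums were 9180 ± 399 CPM in YAP-SY CCA and 8564 ± 271 CPM in YAP-S CCA, and the tumors of the groups overlapped. The complexes held similar shares of the sum: complex I held 26.5 ± 0.653% of it in YAP-SY CCA and 28.2 ± 0.322% in YAP-S CCA, and complex II 11.2 ± 0.218% and 10.1 ± 0.287% in the same order.

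**Figure D1:**
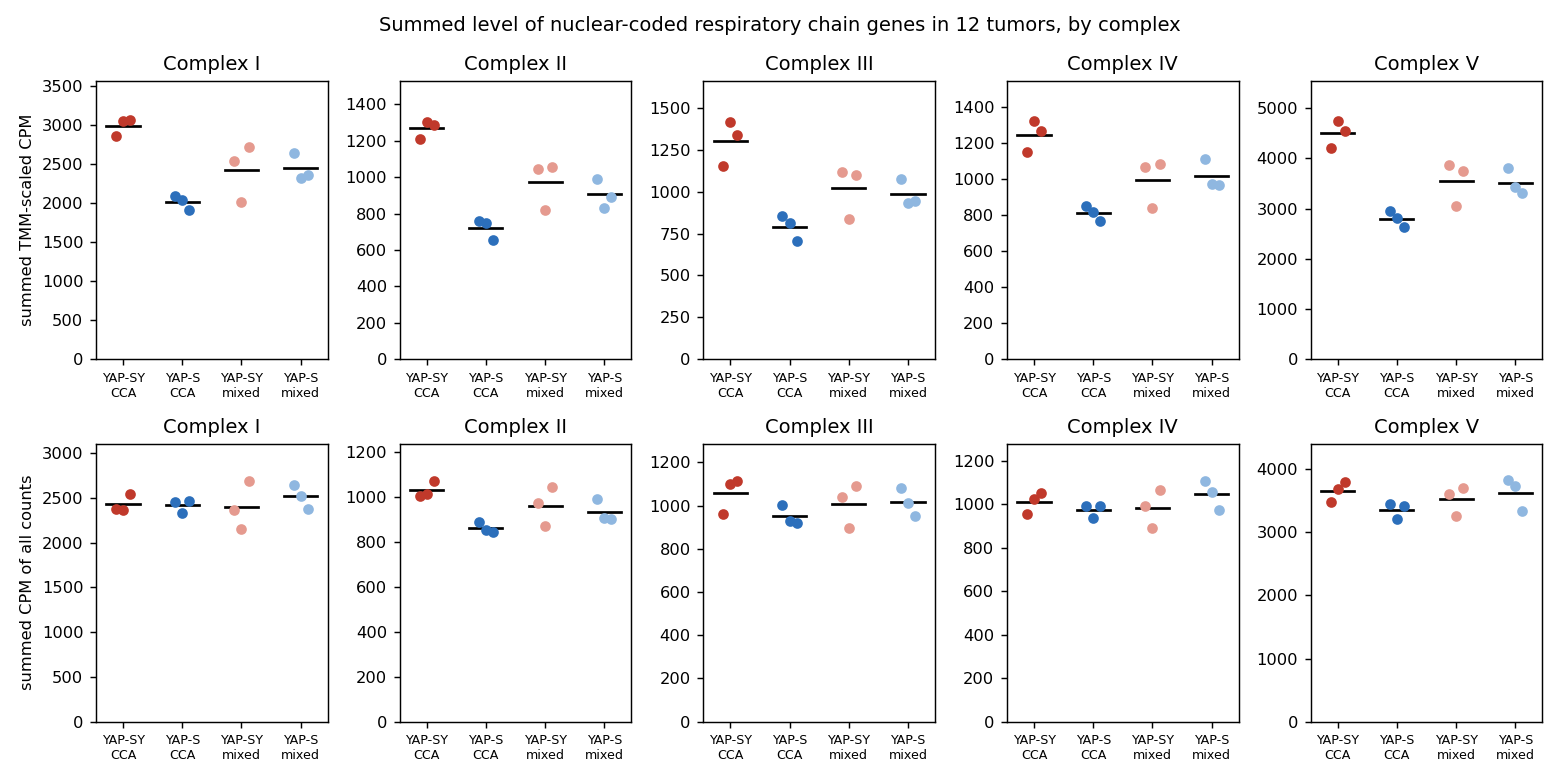
Summed CPM of the genes of each complex (panels I to V), TMM-scaled in the upper row and by library size alone in the lower row; points are tumors, lines are means of 3. In the upper row the YAP-SY CCA tumors lie above all YAP-S CCA tumors in each complex, while in the lower row the groups lie much closer, and those of complexes I, III and IV overlap.

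Complex I, which takes electrons from NADH, had 20 of 37 genes higher and none lower, with a median log2 fold change of 0.50. Counts and sums of complex I include Ndufa4 and Ndufa4l2, which were placed there by name. Ndufa4 (chromosome 6, 11900373 to 11907446, mm10 coordinates as in the files) stood at 325, 366 and 311 CPM in YAP-SY CCA and at 176, 183 and 161 CPM in YAP-S CCA. It was 1.93-fold higher (log2 fold change 0.95, SE 0.14, adjusted p 0.000428). Ndufs1, the iron-sulfur core subunit of the NADH-oxidising arm (chromosome 1, 63143596 to 63176833), stood at 185, 248 and 193 CPM in YAP-SY CCA and at 102, 109.8 and 92.4 CPM in YAP-S CCA, 2.06-fold higher (1.04, SE 0.16, adjusted p 0.000599). Neither gene's groups overlapped, and both passed by library size alone. Of the core subunits, Ndufs3 and Ndufv2 were also higher (0.84 and 0.68), while Ndufv1 (0.42), Ndufs8 (0.15) and Ndufs7 (-0.03) did not pass. Several accessory subunits did not pass either and had values near 0, among them Ndufa2 (-0.01), Ndufa13 (-0.03), Ndufa11 (0.05) and Ndufb7 (-0.17).

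Complex II, succinate dehydrogenase, also a step of the citric acid cycle, had all 4 genes higher. Sdha, the flavoprotein that oxidises succinate (chromosome 13, 74322254 to 74350280), stood at 687, 783 and 708 CPM in YAP-SY CCA and at 387, 410.3 and 342 CPM in YAP-S CCA (1.91-fold higher, 0.93, SE 0.15, adjusted p 0.000619). Sdhd, a membrane anchor (chromosome 9, 50596338 to 50603849), stood at 224, 226 and 233 CPM in YAP-SY CCA and at 146, 134 and 119 CPM in YAP-S CCA (1.71-fold higher, 0.77, SE 0.14, adjusted p 0.00152). All YAP-SY CCA tumors were above all YAP-S CCA tumors for both. Sdhc, the other anchor, was higher by 0.64 and Sdhb, the iron-sulfur subunit, by 0.56.

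Complex III, which hands electrons to cytochrome c, had 4 of 8 genes higher, with a median of 0.63. Uqcrc2, a core subunit (chromosome 7, 120635176 to 120659478), stood at 330.1, 457 and 358 CPM in YAP-SY CCA and at 211, 211 and 176 CPM in YAP-S CCA (1.92-fold higher, 0.94, SE 0.17, adjusted p 0.00131). Uqcrh, the hinge subunit at which cytochrome c docks (chromosome 4, 116066965 to 116075071), stood at 232, 279 and 187 CPM in YAP-SY CCA and at 125, 139 and 113 CPM in YAP-S CCA (1.85-fold higher, 0.89, SE 0.21, adjusted p 0.00508). Neither gene's groups overlapped. Uqcrb and the Rieske protein gene Uqcrfs1 were higher as well (0.94 and 0.83). Uqcrc1 (0.42), Uqcrq (0.28), Uqcr10 (0.26) and Uqcr11 (0.24) did not pass. Uqcrq was at 57.0, 55.8 and 115 CPM in YAP-SY CCA and at 78.6, 54.5 and 55.0 CPM in YAP-S CCA, so that its groups overlapped and YAP-SY CCA tumor 8 was high.

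Complex IV, cytochrome c oxidase, had 7 of 12 tested genes higher and 1 lower, with a median of 0.55. Cox7a2, the liver form of subunit VIIa (chromosome 9, 79755241 to 79759853), stood at 165, 181 and 179.8 CPM in YAP-SY CCA and at 105, 103 and 91.8 CPM in YAP-S CCA (1.75-fold higher, 0.81, SE 0.12, adjusted p 0.000434). Cox7b (chromosome X, 106015700 to 106022450) stood at 162, 159 and 157 CPM in YAP-SY CCA and at 92.6, 106 and 85.4 CPM in YAP-S CCA (1.68-fold higher, 0.75, SE 0.13, adjusted p 0.000994). The groups of each lay well apart. Cox5a had the largest rise of the 78 genes (1.10, SE 0.30, adjusted p 0.0113) with a wide spread, at 112 ± 48.5 CPM in YAP-SY CCA and 52.3 ± 10.9 CPM in YAP-S CCA (SD, n = 3 each). Cox8a was higher by 0.52 but did not pass when tumor 6 or 8 of YAP-SY CCA, or tumor 4 or 5 of YAP-S CCA, was left out (0.45 to 0.53).

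Complex V, the ATP synthase, had 11 of 17 genes higher and none lower, with a median of 0.61. Atp5b, the catalytic beta subunit (chromosome 10, 128083273 to 128090391), stood at 1423, 1587 and 1458 CPM in YAP-SY CCA and at 885, 869 and 825 CPM in YAP-S CCA (1.73-fold higher, 0.79, SE 0.14, adjusted p 0.00118). Atp5o, which codes the stalk subunit that ties the catalytic head to the membrane part (chromosome 16, 91684398 to 91931687), stood at 166, 151 and 159 CPM in YAP-SY CCA and at 103, 109 and 102 CPM in YAP-S CCA (1.52-fold higher, 0.60, SE 0.11, adjusted p 0.00131). Both sets of values were free of overlap. By library size alone Atp5b (0.22) and Atp5o (0.04) did not pass. Atp5d (0.08) and Atp5e (0.40), which code the small subunits of the central stalk, did not pass.

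Per kilobase of gene length, the 12 tumors held most RNA of Ndufa4 (542 CPM per kb), Cox6b1 (341), Atp5b (273) and Atp5a1 (263). Among the genes with a test, Ndufa4l2 (2.45) and Cox6b2 (0.758) held least by the same measure.

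**Figure D2:**
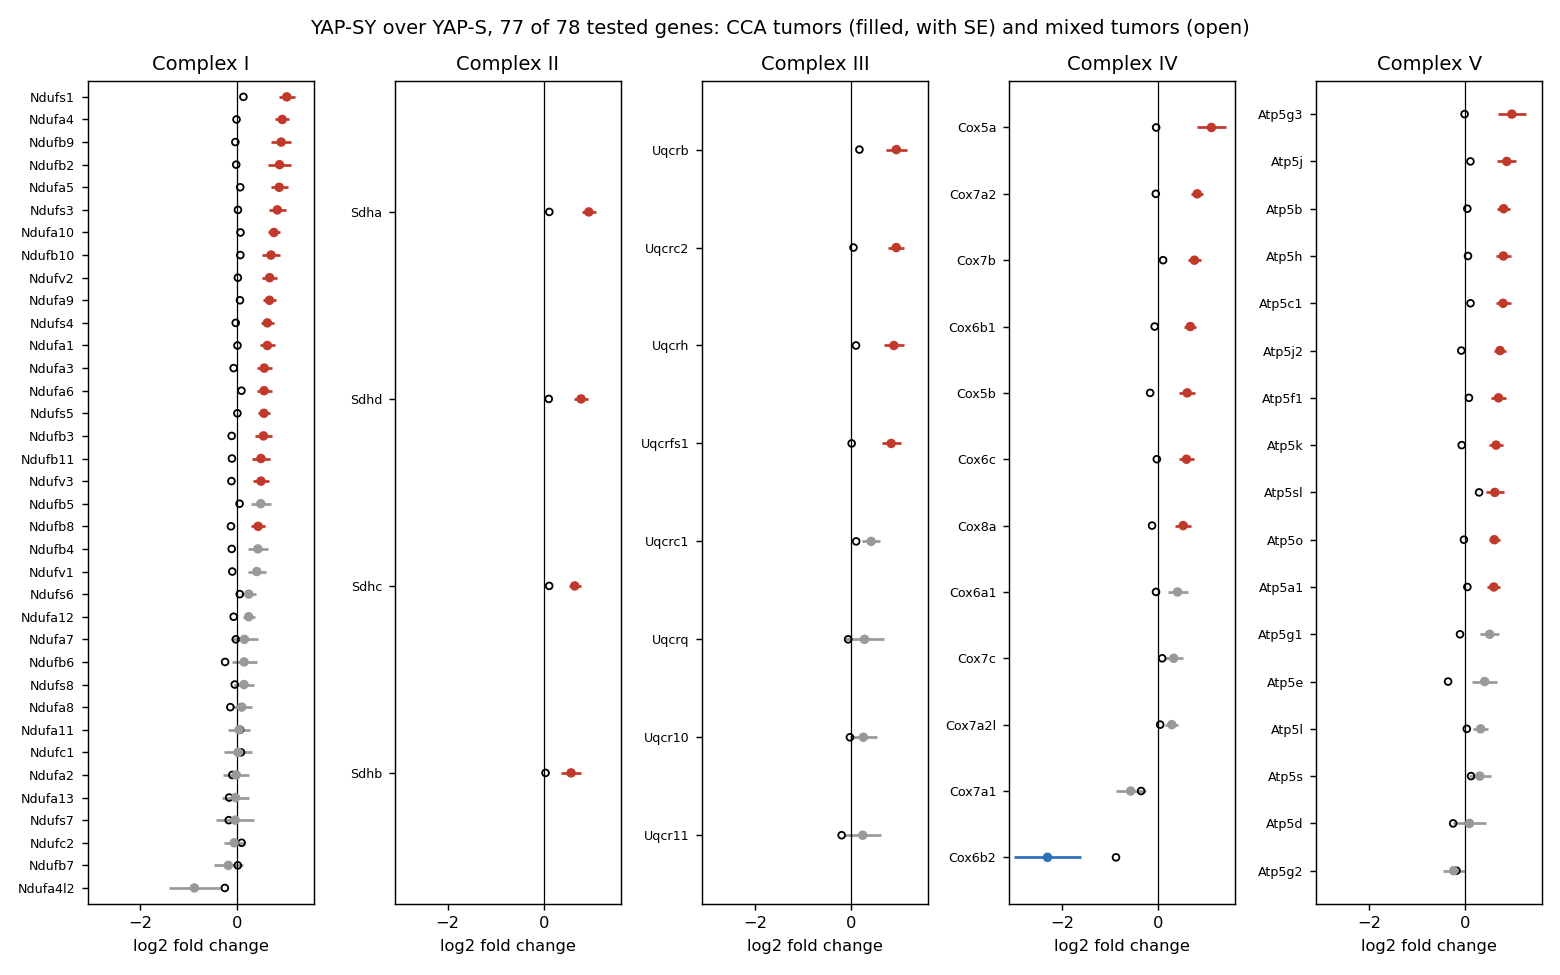
Log2 fold change of YAP-SY over YAP-S for 77 of the 78 tested genes, by complex; filled points with standard errors are CCA tumors (red higher, blue lower, grey not passed at an adjusted p of 0.05), and open points are mixed tumors. Filled points lie mostly right of 0, with a median of 0.57 over the 78 genes, and open points lie around 0, with a median of -0.01.

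Several subunits have a widespread form and a form that is restricted to a tissue or induced. In CCA tumors, Cox6b2 was lower in YAP-SY, Ndufa4l2 and Cox7a1 did not pass, and Cox6a2 and Cox8b had too few counts for a test. Of the widespread partners Cox6b1, Ndufa4, Cox7a2 and Cox8a were higher, and Cox6a1 did not pass (0.40, adjusted p 0.146). Cox6b2, the testis form of subunit VIb (chromosome 7, 4751792 to 4753094), was the only gene called lower. It was at 0.521, 0.0839 and 0.501 CPM in YAP-SY CCA, from 23, 3 and 18 counts, and at 1.82, 2.08 and 1.62 CPM in YAP-S CCA, from 180, 179 and 69 counts. Its log2 fold change was -2.30 (SE 0.70, adjusted p 0.0204), and it did not pass when tumor 6 of YAP-SY CCA (-1.85, adjusted p 0.0593) or tumor 4 of YAP-S CCA (-2.21, adjusted p 0.0515) was left out. The widespread Cox6b1 was higher by 0.67 (adjusted p 0.0018). The 6 germ cell markers summed to 0.475 to 0.556 CPM in YAP-SY CCA and to 0 to 0.328 CPM in YAP-S CCA. The largest part in YAP-SY CCA was Ddx4, at 0.382 ± 0.138 CPM, against 0.0658 ± 0.105 CPM in YAP-S CCA. Prm1 and Prm2 were instead at 0 in YAP-SY CCA and just above it in YAP-S CCA. Only 1 of the 6 had enough counts for a test, and it did not pass. Their part in the values of Cox6b2 was not tested.

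Ndufa4l2 was at 0.974, 1.17 and 4.20 CPM in YAP-SY CCA and at 4.35, 4.60 and 2.67 CPM in YAP-S CCA. YAP-SY CCA tumor 8 lay among the YAP-S CCA tumors, and the gene did not pass (-0.88, SE 0.53, adjusted p 0.205). Without that tumor it passed (-1.85, adjusted p 0.00995). Ndufa4l2 is known from low oxygen and from pericytes. Of 10 hypoxia response genes, 5 were lower and 2 higher in YAP-SY CCA, against 20.8% and 18.3% of all genes, with a median log2 fold change of -1.19. Their summed levels overlapped, at 411 to 676 CPM in YAP-SY CCA and 409.5 to 731 CPM in YAP-S CCA. On average Vegfa weighed most in these sums (236 ± 120 and 235 ± 79.3 CPM in the same order). The mean of log2(CPM + 1) over the 10 genes did not overlap, at 3.99 to 4.13 in YAP-SY CCA and 4.56 to 5.30 in YAP-S CCA. Car9, the hypoxia-induced carbonic anhydrase IX, was at 0.479 ± 0.0633 CPM in YAP-SY CCA and 7.55 ± 1.06 CPM in YAP-S CCA (SD, n = 3 each), while Bnip3, a mitophagy receptor, was higher, at 141 ± 43.5 and 61.0 ± 23.2 CPM in the same order. Pdk1, the kinase that restrains pyruvate dehydrogenase, was the other gene that was higher, at 82.2 ± 22.2 CPM in YAP-SY CCA and 51.2 ± 15.8 CPM in YAP-S CCA. The 7 pericyte markers summed to 132 to 169 CPM in YAP-SY CCA and to 525 to 599 CPM in YAP-S CCA, most of it from Rgs5 (79.0 ± 11.2 and 436 ± 27.8 CPM in the same order). Rgs5, Pdgfrb, Cspg4 and Notch3 were lower in YAP-SY CCA, while Abcc9 (0.34), Higd1b (0.79, below 0.3 CPM in both groups) and Kcnj8 (-0.13) did not pass. The part of either in the values of Ndufa4l2 was not tested.

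Cox7a1, the heart and muscle form beside Cox7a2, was at 1.74, 0.950 and 2.0 CPM in YAP-SY CCA, against 2.46, 1.91 and 2.64 CPM in YAP-S CCA. It did not pass (-0.57, adjusted p 0.166). Cox6a2, the muscle form beside Cox6a1, had 0, 0 and 2 counts in YAP-SY CCA and 19, 14 and 8 counts in YAP-S CCA. Cox8b, the muscle form beside Cox8a, had 10, 1 and 0 counts in YAP-SY CCA and 0, 3 and 0 counts in YAP-S CCA. The 10 striated muscle markers summed to 0.317, 0.391 and 0.167 CPM in YAP-SY CCA and to 4.02, 0.279 and 1.87 CPM in YAP-S CCA. YAP-S CCA tumors 3 and 5 were thus above all YAP-SY CCA tumors, and of the 2 markers with a test Actc1, cardiac actin, was lower (-3.15, adjusted p 0.0194). Their part in the values of these forms was not tested. Of the 3 genes of subunit c of the synthase, which make the same mature protein, Atp5g3 was higher (0.96, adjusted p 0.0189), while Atp5g1 (0.50, adjusted p 0.0617) and Atp5g2 (-0.25, adjusted p 0.422) did not pass. Atp5g3 did not pass when tumor 6 of YAP-SY CCA (0.73), or tumor 4 (0.97) or 5 (0.78) of YAP-S CCA, was left out. Counting could split reads between these 3 genes and their pseudogene copies, so their separate values are uncertain.

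Ratios within a tumor do not depend on scaling, but those given here were not adjusted for GC content. Transcripts of Ndufa4l2 held 59.3% GC (Ndufa4 44.5%), those of Cox6b2 55.7% (Cox6b1 51.6%) and those of Cox7a1 55.0% (Cox7a2 51.9%). Cox6a2 was not compared in this way. Over all genes, GC-rich genes were lower relative to the others in YAP-SY CCA than in YAP-S CCA (values below). The part of GC content in these ratios was not tested. In CCA tumors the log2 ratio of the restricted to the widespread form, in YAP-SY minus YAP-S, was -3.20 for Cox6b2 over Cox6b1, -2.78 for Cox6a2 over Cox6a1, -2.08 for Ndufa4l2 over Ndufa4 and -1.43 for Cox7a1 over Cox7a2. These ratios are of counts with 1 added, on which that of Cox6a2 depends because of its counts of 0. In each of these 4 pairs the 3 YAP-SY CCA tumors lay below the 3 YAP-S CCA tumors. The 2-sided exact permutation p was 0.1 for each, the smallest that 3 against 3 tumors allow, and 0.2 after adjustment over the 24 ratios tested. In mixed tumors the same differences were -1.18, 1.04, -0.42 and -0.33. That of Cox6a2 over Cox6a1 thus had the opposite sign, with all 3 YAP-SY mixed tumors above all 3 YAP-S mixed tumors (2-sided exact permutation p 0.1, adjusted 0.2), from 4, 8 and 16 counts of Cox6a2 in YAP-SY mixed and 4, 3 and 1 in YAP-S mixed; the groups of the other pairs overlapped. CCA minus mixed tumors gave 1.67, 1.62, 1.70 and 0.37 in YAP-S, without overlap in the first 3 pairs, and -0.34, -2.20, 0.04 and -0.73 in YAP-SY, without overlap for Cox6a2 over Cox6a1 alone. Per kilobase, Cox6b2 made up 0.119%, 0.0160% and 0.110% of the pair in YAP-SY CCA and 0.616%, 0.683% and 0.542% in YAP-S CCA. Ndufa4l2 made up 0.153%, 0.164% and 0.687% of its pair in YAP-SY CCA and 1.25%, 1.27% and 0.841% in YAP-S CCA.

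**Figure D3:**
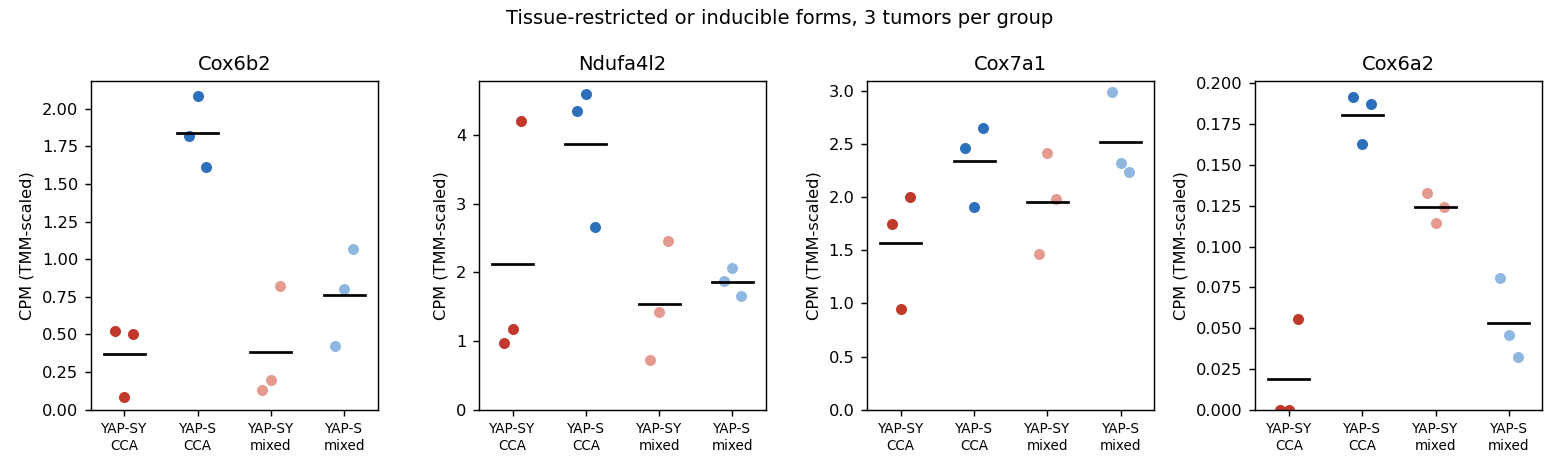
TMM-scaled CPM of Cox6b2, Ndufa4l2, Cox7a1 and Cox6a2 in each tumor by group, with lines at the means of 3. Levels are at or below 4.60 CPM throughout; Cox6b2 is lower in all 3 YAP-SY CCA tumors than in the YAP-S CCA tumors, while Ndufa4l2 overlaps through YAP-SY CCA tumor 8.

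In mixed tumors, no difference between YAP-SY and YAP-S passed for these genes. By edgeR's quasi-likelihood test 0 of 78 genes passed, as did 0 of all genes (0%); at an unadjusted p under 0.05 there were 0 of the 78 and 551 of all genes, and DESeq2 and limma-voom also called 0 of the 78. The median log2 fold change was -0.01, and in no gene were the groups free of overlap, against 4.3% of all genes higher and 4.05% lower. The smallest p belonged to Atp5sl, at 26.7, 20.8 and 34.3 CPM in YAP-SY mixed and 22.0, 23.4 and 21.9 CPM in YAP-S mixed (0.28, adjusted p 0.999). Next was Atp5e, at 52.1, 43.7 and 99.4 CPM in YAP-SY mixed and 88.3, 83.3 and 79.4 CPM in YAP-S mixed (-0.36, adjusted p 0.999). YAP-SY mixed tumors varied more among themselves than YAP-S mixed tumors in both.

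The effect of YAP-SY was larger in CCA than in mixed tumors for 19 of the 78 genes and smaller for none, by a test of the difference in the same edgeR fit; of all genes, 5.02% were higher and 10.2% lower. The difference was positive in 70 of the 78 genes, with a median of 0.61 against 0.01 over all genes. It was 0.86 for Cox7a2 (SE 0.17, adjusted p 0.00833) and 0.95 for Ndufa4 (SE 0.20, adjusted p 0.0103). Cox7a2 was at 145, 129 and 129.8 CPM in YAP-SY mixed and at 155, 129 and 135 CPM in YAP-S mixed, so the groups overlapped. Among the 19 were Ndufa4, Ndufa5, Ndufa10, Ndufs1, Ndufs3, Ndufs4, Sdha, Sdhd, Uqcrc2, Cox5b, Cox6b1, Cox7a2, Cox7b, Atp5b, Atp5h, Atp5j2, Atp5k and Atp5o. The count rested on single tumors and on the scaling: it was 0 by library size alone, 35 by DESeq2, and 3 when tumor 3 or 5 of YAP-S CCA or tumor 2 of YAP-S mixed was left out. The count over all genes moved as well. It was 920 higher in the main fit, 150 by library size alone, 1704 by DESeq2, and 406, 201 and 202 without those tumors, in the same order.

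Set against mixed tumors, CCA tumors had medians of opposite sign in the 2 models, and 0 of the 78 genes passed in either by the edgeR test, against 2.9% of all genes in YAP-SY (0.207% higher and 2.7% lower) and 0% in YAP-S. In YAP-SY, CCA tumors were higher than mixed tumors without overlap in 17 genes and lower in 0, against 7.99% and 12.1% of all genes, with a median of 0.32. In YAP-S, CCA tumors were lower than mixed tumors without overlap in 43 genes and higher in 3, against 17.6% and 20.2% of all genes, with a median of -0.25. At an unadjusted p under 0.05 there were 25 of the 78 genes in each model, against 3951 of all 18318 genes in YAP-SY and 3636 in YAP-S. DESeq2 called 11 of the 78 higher in YAP-SY and 4 lower in YAP-S, against 451 and 476 of all genes. It called 1383 of all genes lower in YAP-SY and 1037 higher in YAP-S. Limma-voom called 0 of the 78 higher in YAP-SY and 2 lower in YAP-S, against 2 and 140 of all genes. In YAP-SY the smallest p belonged to Atp5o (0.39, SE 0.11, adjusted p 0.0708) and Cox7a2 (0.38, adjusted p 0.0977). In YAP-S it belonged to Ndufa4, at 176, 183 and 161 CPM in CCA and 314, 249.7 and 276 CPM in mixed tumors (-0.69, SE 0.14, adjusted p 0.054), and to Cox7a2 (-0.48, adjusted p 0.0668). By library size alone the medians were 0.03 in YAP-SY and -0.03 in YAP-S. Summed hepatocyte markers moved with the TMM medians: they were 151783 to 170594 CPM in CCA and 92079 to 123215 CPM in mixed tumors of YAP-SY, and 52982 to 67447 CPM in CCA and 90519 to 97954 CPM in mixed tumors of YAP-S. Summed bile duct markers were 2786 to 4229 CPM in CCA and 4349 to 16514 CPM in mixed tumors of YAP-SY, and overlapped in YAP-S, at 7658 to 10983 CPM in CCA and 9550 to 10277 CPM in mixed tumors. YAP-SY tumors labelled CCA were thus those with the most hepatocyte and the least bile duct marker RNA, which goes against that label, and the part of these markers in the medians was not tested. These comparisons share tumors with those of YAP-SY against YAP-S.

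**Figure D4:**
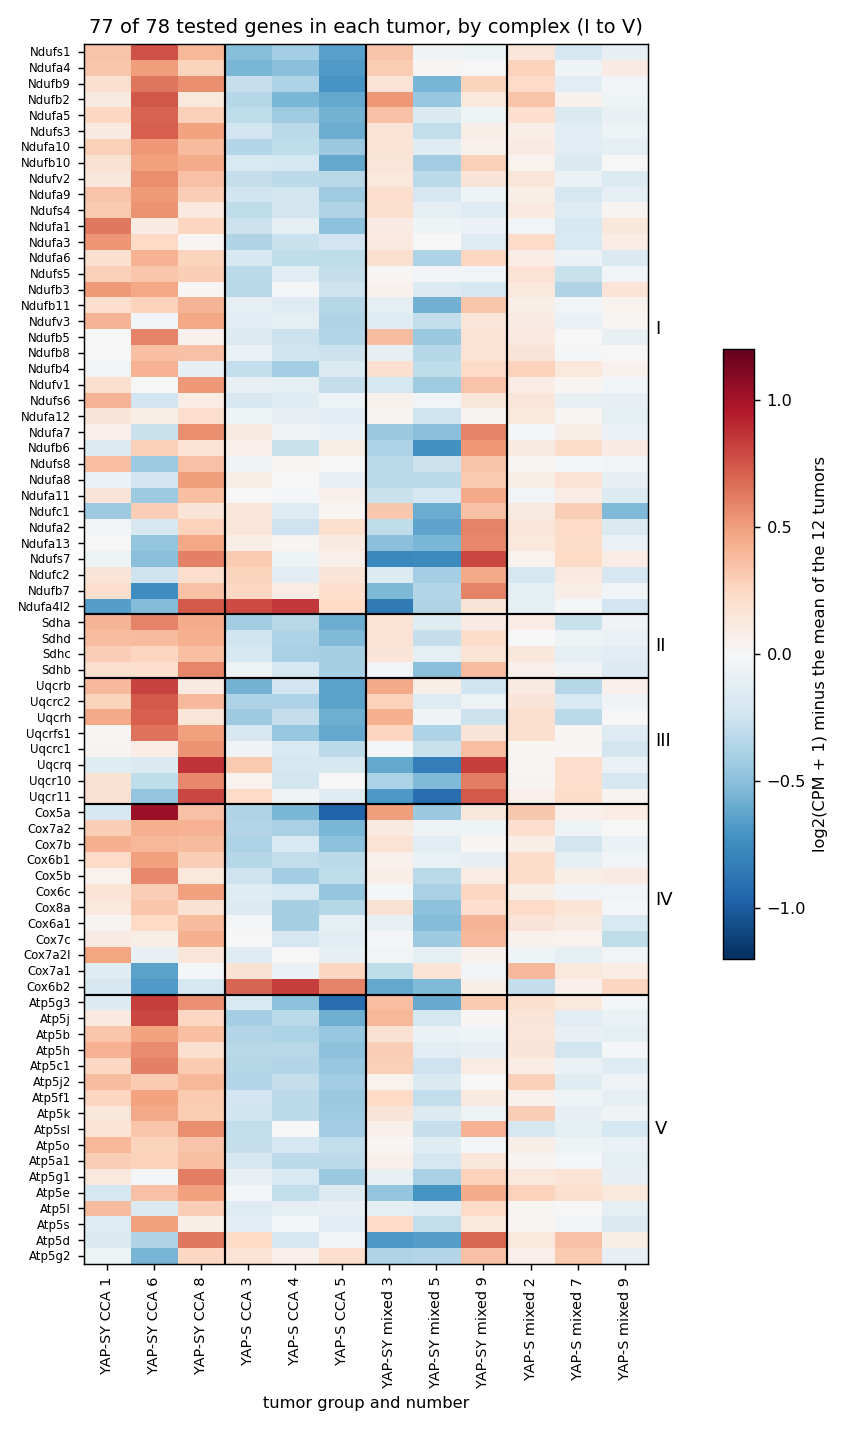
Level of 77 of the 78 genes in each of the 12 tumors, as log2(CPM + 1) minus the mean of the 12, with complexes I to V from top to bottom and genes ordered by fold change. YAP-SY CCA columns are mostly red and YAP-S CCA columns mostly blue; the lower rows of each complex instead follow single tumors, such as YAP-SY CCA 8 and YAP-SY mixed 9 (red) against YAP-SY mixed 3 and 5 (blue).

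The genes that did not pass in CCA tumors were in part those that varied most within groups. The SD within groups, on the log2(CPM + 1) scale, was 0.56 for Uqcrq and Uqcr11, 0.54 for Ndufs7 and 0.49 for Atp5d, against a median of 0.23 over the 78 genes. Ndufs7 was at 22.2, 16.1 and 35.9 CPM in YAP-SY CCA, against 29.2, 22.2 and 24.4 CPM in YAP-S CCA. Among mixed tumors it stood at 13.2, 13.3 and 41.3 CPM in YAP-SY and 24, 27.7 and 24.8 CPM in YAP-S. It was high in YAP-SY CCA tumor 8 and YAP-SY mixed tumor 9 and low in the other YAP-SY tumors. Many of these genes have GC-rich transcripts. Across the 78 genes, which share these libraries and are not independent, the GC content of transcripts and the log2 fold change in CCA had a Spearman correlation of -0.49, and across 14830 genes -0.31. Of the 39 genes with more GC, 20 were higher and 1 lower (median 0.45), and of the 39 with less, 26 were higher (median 0.68). The mean log2 level of the GC-rich genes minus that of the others was -0.73, -1.03 and -0.56 in YAP-SY CCA, against -0.47, -0.51 and -0.45 in YAP-S CCA. In mixed tumors it was -0.95, -0.73 and -0.49 for YAP-SY and -0.69, -0.58 and -0.64 for YAP-S. It was lowest in YAP-SY CCA tumor 6 and YAP-SY mixed tumor 3. Over all genes, split at the same GC content, it was -0.50, -0.86 and -0.37 in YAP-SY CCA, against -0.12, -0.22 and -0.17 in YAP-S CCA. With offsets for GC content, chosen after seeing the data, 61 of the 78 genes were called in CCA, including the 47 above. Calls rose among all genes too. With offsets 4029 of the 14830 (27.2%) were higher and 3391 lower, against 18.3% and 20.8% of all genes without them.

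**Figure D5:**
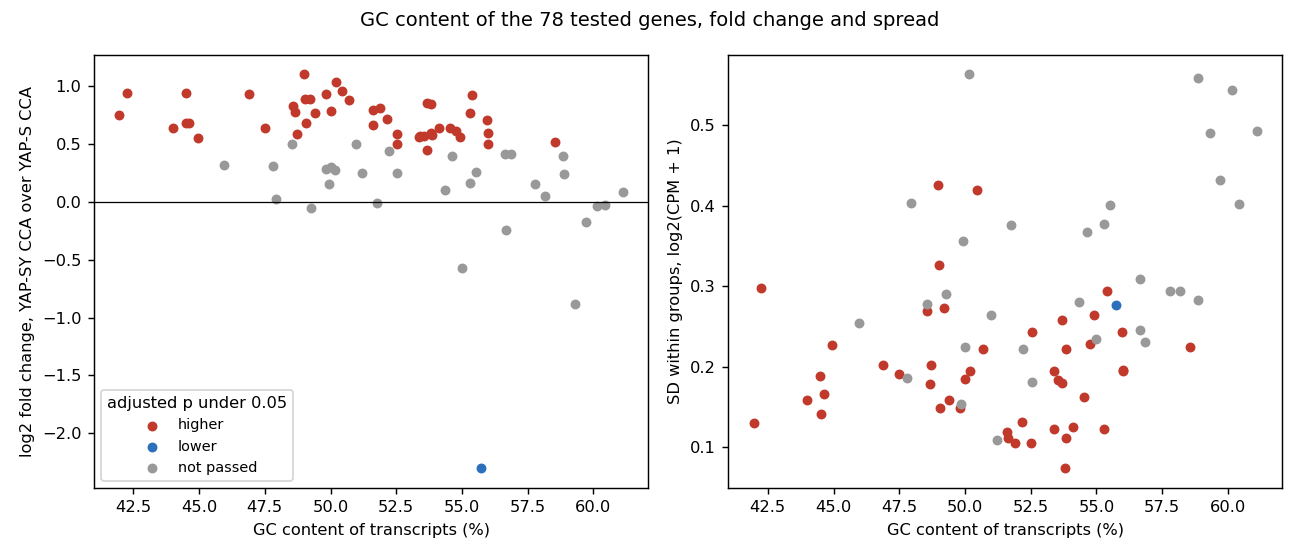
GC content of transcripts of the 78 tested genes against the log2 fold change of YAP-SY CCA over YAP-S CCA (left) and against the SD within groups on the log2(CPM + 1) scale (right); red is higher, blue lower and grey not passed. Fold changes decline towards high GC content (Spearman correlation -0.49) while the SD tends to be larger there (0.32).

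Other mitochondrial genes were read from lists of the pathway in the same comparison of YAP-SY CCA with YAP-S CCA. Assembly factors, which build the complexes without staying in them, were higher in 9 of 18 for complex I, 3 of 4 for complex II, 2 of 6 for complex III, 10 of 22 for complex IV and 1 of 5 for complex V, and lower in none. Over all genes 18.3% were higher and 20.8% lower, and the share for complex V was near the first of these. Examples are Ndufaf1 for complex I (0.90), Uqcc1 for complex III (0.59), and Coa7 (0.73) and Lrpprc (1.03), a stabiliser of mitochondrial mRNA, for complex IV. Citric acid cycle enzymes were higher in 8 of 14 (median 0.52), led by Sucla2 (1.14) and Suclg2 (1.01), the beta subunits of succinyl-CoA ligase. Coenzyme Q synthesis genes were higher in 6 of 13 (median 0.38) and mitochondrial ribosome proteins in 26 of 77 (median 0.28), with none lower. Of 16 regulators of mitochondrial biogenesis 7 were higher and 0 lower. Among the higher were Tfam and Tfb2m, factors in the transcription of mitochondrial DNA (0.80 and 0.87). Ppargc1a, the coactivator PGC-1 alpha (0.89), and Gabpa, the DNA-binding part of GABP (0.62), were higher too. Nrf1 was level, at means of 16.7 CPM in YAP-SY CCA and 16.8 CPM in YAP-S CCA. Means of Esrra (11.9 and 16.5 CPM), Gabpb1 (13.3 and 17.2 CPM) and Polrmt were lower in YAP-SY CCA. In each of these 3 genes the tumors of the groups overlapped. These counts are on the TMM scale and were not repeated by library size alone.

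Of 8 tested genes in a list of those that the names miss, 5 were higher and 1 lower in YAP-SY CCA, against 18.3% and 20.8% of all genes. The list also holds Cycs and Atpif1, which are not themselves subunits of a complex. Of the subunits, Ndufab1 had means of 40.5 CPM in YAP-SY CCA and 26.7 CPM in YAP-S CCA. Means of Cyc1 were 148 and 99.2 CPM, and those of Cox4i1 249 and 193 CPM, in the same order. The groups of Cox4i1 overlapped, while those of Ndufab1 and Cyc1 did not. Cytochrome c itself, Cycs, was at 86.6 ± 14.4 CPM in YAP-SY CCA and 55.5 ± 3.76 CPM in YAP-S CCA (SD, n = 3 each; 0.64, adjusted p 0.0109). The lower gene was Atpif1, whose product inhibits the synthase when it runs backwards. It was at 20.4, 12.7 and 21.7 CPM in YAP-SY CCA and 38.2, 36.8 and 39.5 CPM in YAP-S CCA, with no overlap (-1.06 on the log2 scale, SE 0.20, adjusted p 0.00143). In mixed tumors 0 of the 8 passed.

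SB1 cells were set beside YAP-S CCA tumors by CPM of library size, without a test, since the 2 tables were made separately. Alb took 0.0612% to 0.111% of counts in SB1 and 4.39% to 4.48% in YAP-S CCA, so SB1 held little hepatocyte RNA. The 11 bile duct markers went in different directions: they summed to 2842 to 3296 CPM in SB1 and, TMM-scaled, to 7658 to 10983 CPM in YAP-S CCA, most of it Spp1, osteopontin. In SB1 the keratin Krt19 was high, at 1100 to 1789 CPM, whereas Epcam was at 0.114 to 0.395 CPM and Cldn7 at 0. The 82 genes summed to 11017 ± 178 CPM in SB1 and 8564 ± 271 CPM in YAP-S CCA (SD, n = 3 each). The median log2 ratio of SB1 over YAP-S CCA was 0.19 for the 80 genes with a count and 0.52 over 12411 genes at 1 CPM or more in both. All SB1 samples were above all YAP-S CCA tumors in 42 genes and below them in 15, against 59.9% and 22.1% of those 12411 genes.

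The complexes differed in their shares in SB1. Complex V made up 47.9 ± 1.35% of the counts of the 82 genes in SB1 and 39.2 ± 0.383% in YAP-S CCA, and complex II 5.99 ± 0.0700% and 10.1 ± 0.287% in the same order. Sdha was at 242 ± 10.3 CPM in SB1 and 455 ± 13.2 CPM in YAP-S CCA, a ratio of 0.532, while the ratios of Sdhb, Sdhc and Sdhd were 0.993, 0.980 and 1.08. The sum of complex II was 660 CPM in SB1 and 863 CPM in YAP-S CCA. That of complex V was 5277 and 3360 CPM, and that of complex I 2934 and 2417 CPM, in the same order. The lower share of complex II thus went both with less Sdha and with higher sums of complexes I and V. The median log2 ratio was -0.02 over the 4 genes of complex II and 0.57 over the 17 of complex V, the second close to the 0.52 of all genes. Atp5b was at 1976 ± 134 CPM in SB1 and 1033 ± 36.8 CPM in YAP-S CCA (ratio 1.91), and Cox8a, the widespread form of subunit VIII, at 165 ± 4.86 and 69.3 ± 6.92 CPM (2.38). Restricted forms differed: Cox6b2 had 0, 0 and 1 counts and Ndufa4l2 4, 2 and 6 counts in the 3 SB1 samples, and Rgs5 was at 1.97 to 5.48 CPM there. Cox8b had 0 counts in each, and Cox6a2 had 1, 1 and 21. Cox7a1 had 65, 64 and 102 counts. Per kilobase it made up 2.66%, 3.10% and 4.70% of its pair with Cox7a2, against 4.62%, 3.71% and 5.63% in YAP-S CCA tumors 3, 4 and 5.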

How the data were processed

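Counts per gene of 12 tumors, which the authors call corrected, and raw counts of 3 SB1 samples were used as deposited. What was corrected is not stated. STAR and mm10 are named in the submitters' processing notes; the counting tool, its use of strand and the annotation are not given in the sources used here, so overlapping and antisense genes could share counts. The table with SB1 holds 3 value columns of no labelled sample, which were not used.

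Of 43346 genes, filterByExpr by group kept 18318. All 12 tumors entered a single fit in edgeR 4.0.16 (R 4.3.3) with TMM scaling and 1 term per group. Each of 5 contrasts was tested with glmQLFTest and Benjamini-Hochberg adjustment over all tested genes (threshold 0.05), on a fit that was tested on simulated data. Standard errors come from that fit. CPM in tumors refer to TMM-scaled libraries unless named otherwise. Log2 values of CPM use an added 1. Per-kilobase values divide by the gene lengths in the deposited tables. GC content is the median over protein-coding transcripts of GENCODE M21. Ratios of 2 forms used exact permutation tests over tumors. Between tumors of a group, log2 CPM correlated by 0.975 to 0.991 across genes. Alternatives were library size alone, DESeq2 size factors, DESeq2 1.42.0, limma-voom (limma 3.58.1), no count filter, fits to the compared groups only, leaving out each tumor and GC offsets.

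Genes given in full were the 2 of each complex with the smallest p in CCA, the 2 with the smallest p in each other contrast, called genes against their complex's direction, and restricted or paralogous forms. Cox5a, Uqcrq, Ndufs7, Cycs, Atpif1 and the other values given in passing were picked after their values were seen. The genes, lists and tests were chosen with earlier results of these data known. A gene among the 78 is counted in the totals but not reported here by itself.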

Additional observations from a re-analysis of the deposited data

Results flagged for a closer look

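The effect of YAP-SY over YAP-S differed between CCA and mixed tumors, by the interaction term of the edgeR fit, for 19 of the 78 tested genes, all with the larger value in CCA. Of all genes tested, 5.02% were higher and 10.2% lower by the same term. Among the genes described in full, the log2 difference was 0.95 for Ndufa4, 0.90 for Ndufs1, 0.82 for Sdha, 0.67 for Sdhd, 0.89 for Uqcrc2, 0.74 for Cox6b1, 0.86 for Cox7a2, 0.65 for Cox7b, 0.75 for Atp5b and 0.63 for Atp5o. By library size alone 0 of these differences passed (0.35 for Cox7a2 and 0.44 for Ndufa4). With 3 tumors a group, single outlying tumors were not tested for.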

How the results depend on the processing

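In CCA tumors, YAP-SY against YAP-S, the count of 47 genes was 45 to 48 with DESeq2 size factors, DESeq2, limma-voom, no count filter or the compared groups alone, and 34 to 44 without 1 tumor (33 to 43 higher, 0 to 2 lower). Library size alone gave 9, of which 5 were among the 47: 4 higher and 5 lower. It turned Cox6a1 (-0.17), Cox7a2l (-0.28), Cox8a (-0.052) and Atp5g1 (-0.050), and GC offsets, chosen after seeing the data, turned Atp5g2 (0.15). Of all genes, the difference between CCA and mixed tumors was called higher in 1704 and lower in 2527 by DESeq2. With GC offsets these were 1978 and 2013. In the main fit 920 of all genes were higher, against 150 by library size alone and 201 to 1046 without 1 tumor. For the difference between CCA and mixed tumors the count of 19 was 0 by library size alone, 35 by DESeq2, 41 with GC offsets and 3 to 28 without 1 tumor. It was 3 when tumor 3 or 5 of YAP-S CCA or tumor 2 of YAP-S mixed was left out, 5 without YAP-S mixed tumor 9, 8 without YAP-SY mixed tumor 5, 9 without YAP-S CCA tumor 4 and 12 without YAP-SY CCA tumor 6. In CCA against mixed tumors of YAP-S, the count of 0 became 1 by library size alone or with no filter, 2 by limma-voom and 4 by DESeq2, all lower, and 9 in a fit to those groups alone (1 higher, 8 lower). Of all genes, the fit to those groups alone called 1602 higher and 791 lower. In YAP-SY it became 11 by DESeq2, all higher, and 0 to 2 without 1 tumor (2 without YAP-SY mixed tumor 9). Without YAP-SY mixed tumor 3, the mixed log2 ratios turned to 0.11 (Ndufa4l2 over Ndufa4; leave-outs from -0.89), 0.12 (Atp5g1 over Atp5g3; from -0.21) and 0.15 (Atp5g2 over Atp5g3; from -0.34). The cause of these changes was not tested. Among the named genes, 325 alternative values kept direction and side of the threshold, 19 gained a call, 19 lost one and 5 turned. No paired analysis was possible because the groups compared share fewer than 2 tumor numbers. Restricted forms rest on few counts, and SB1 was not tested against tumors.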
